A study of Homo sapiens with 2 samples.

Results

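The 10 genes that form and control the mitotic CDK1 kinase were followed in DLD-1, a line of human colorectal carcinoma cells, with a wild-type p53 transgene silent or switched on. The members were the cyclin genes CCNA2, CCNB1 and CCNB2, the kinase gene CDK1, its small partner genes CKS1B and CKS2, the phosphatase genes CDC25B and CDC25C, and the inhibitory kinase genes WEE1 and PKMYT1. They were chosen by name, with earlier results of these data known. Every array probe set annotated to 1 of them alone was used. That gave 20 probe sets, for 10 of the 19775 genes with a probe set of their own on the array. Both groups carried the same stably transfected tet-off construct for wild-type p53, which tetracycline keeps silent. The p53 off group was grown with tetracycline, and the p53 on group had been without it for 9 h. Each group was 1 Affymetrix array of total RNA, so every ratio describes these 2 arrays, has no replicate check and was not tested. The labels do not say whether the line was 1 clone, and the induction of the transgene was not checked, so p53 off and p53 on are the conditions as labelled. Tetracycline and p53 differed together, so removal of the drug cannot be told apart from p53.

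CDK1 starts mitosis when it is bound to a B-type cyclin, and cyclin A2 takes it and CDK2 through S and G2 phase. The kinases WEE1 and PKMYT1 (Myt1) hold the cyclin-bound kinase inactive by phosphorylating its ATP-binding loop, and the CDC25 phosphatases remove those phosphates. Activated p53 is known to lower the transcripts of many G2 and mitosis genes, largely through p21 and the DREAM repressor complex, and DREAM reaches such promoters at a sequence called the cell cycle genes homology region, or CHR. NF-Y, an activator of many of the same genes, binds CCAAT boxes.

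The values were MAS5 signals on a linear scale. A floor of 112.4, the median of all signals of probe sets that were not controls, was set under both arrays. Where 1 signal of a probe set lay under the floor the ratio is a bound, written "at least", and where both did the probe set was called not measured. All 10 genes and 18 of the 20 probe sets were measured, 2 of them with a bound. The arrays differed in ways that touch every ratio here. For beta-actin, the ratio of 3' to 5' signal was 1.37 with p53 off and 7.29 with p53 on. The hybridization spike-ins read 1.89 times brighter with p53 on. Probe positions within transcripts were not known, and the part of either difference in the results was not tested. The epithelial identity of the line could be read on both arrays, with EPCAM at 20250 and 35534 and KRT18 at 33328 and 57766, and 9 of 11 colon epithelium markers were measured, all but KRT20 and CDX1. Of markers of other cells, 2 of 6 leukocyte, 4 of 7 fibroblast and 4 of 6 endothelial genes were measured, none above the 247.9 of LAPTM5 with p53 on. The leukocyte markers PTPRC and CD3E lay under the floor on both arrays.

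Transcripts of this switch were lower with p53 on, except WEE1. By the brightest probe set of each gene, 7 of 10 genes were at least 2-fold lower, where 13.5% of all 13915 measured genes were. CDK1 and CKS1B were lower by less than 2-fold, and WEE1 alone was at least 2-fold higher, a size that 15.3% of all genes reached, so a count of 1 in 10 is near the background. The median log2 ratio of p53 on over p53 off was -1.75 over the 10 genes, against 0.0035 over all measured genes. Counted by probe set, 13 of the 18 measured were lower by at least 2-fold and 2 higher by that size, against 13.0% and 14.0% of all 25962 measured probe sets with 1 gene. All 10 genes had a mean signal of at least 500, and among the 7460 genes that bright 17.5% were lower by at least 2-fold and 17.3% higher. In RNA from a whole culture, fewer cells in G2 and mitosis cannot be told apart from less of these transcripts in each cell.

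**Figure D1:**
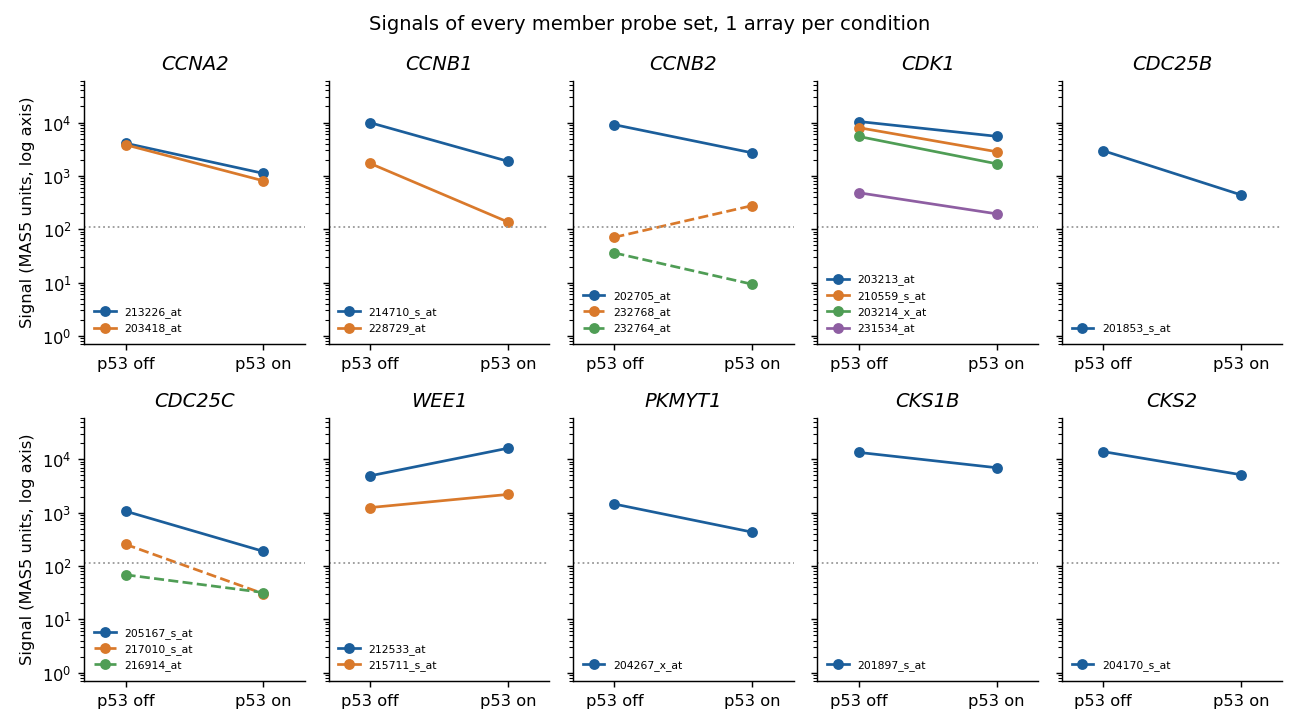
Signal (MAS5 units, log axis) of all 20 member probe sets with p53 off and p53 on, 1 array each, in 1 panel per gene. The dotted line is the floor of 112.4, and dashed lines are probe sets with a signal under it. The lines descend in every panel except that of WEE1 and for 1 dim probe set of CCNB2.

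The order of the ratios ran from CDC25B at -2.75 through CDC25C, CCNB1, CCNA2, CCNB2, PKMYT1, CKS2 and CKS1B to CDK1 at -0.92, with WEE1 at 1.72. The widest step between neighbours among the 9 lower genes was 0.53 on the log2 scale. Across the array, the other measured probe sets of a gene differed from its brightest by a median of 0.56, so no neighbours among those 9 genes were further apart than that. The step from CDK1 to WEE1 was 2.64. Only 30 of the measured genes had a lower ratio than CDC25B, while 2139 had a lower ratio than CDK1.

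**Figure D2:**
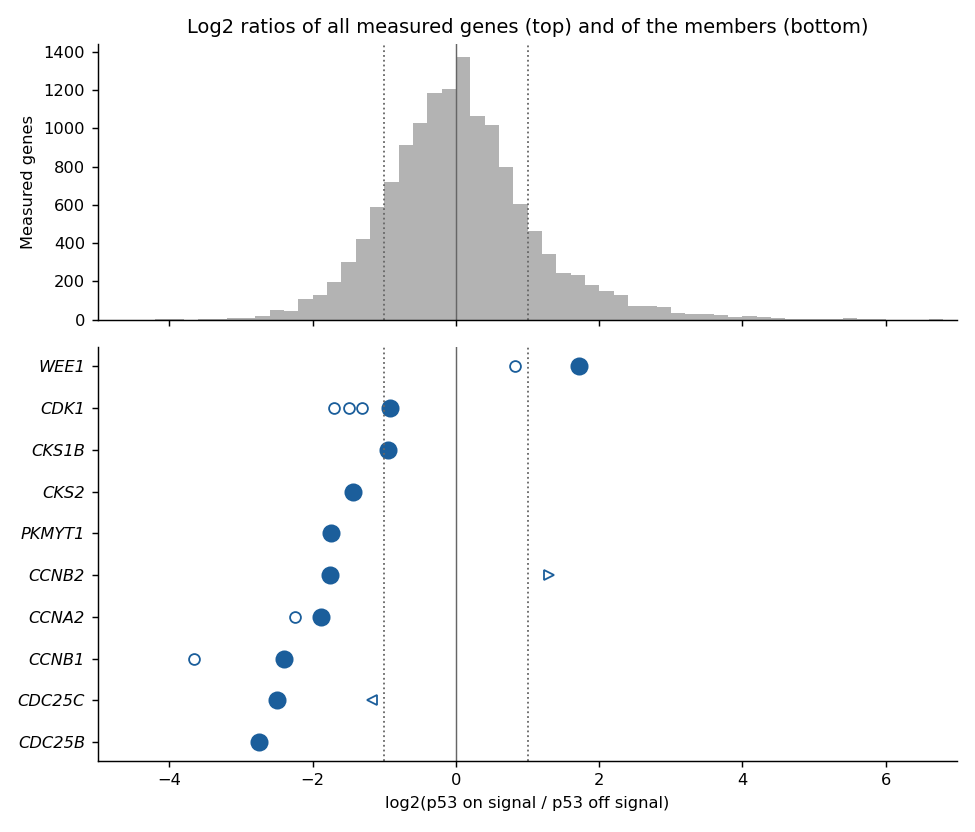
Log2 ratios of the 13915 measured genes as a histogram (top) and of the member probe sets (bottom; large filled points are the brightest probe set of a gene, open points the others, triangles bounds). Dotted lines mark 2-fold. The brightest probe sets run from -2.75 for CDC25B to 1.72 for WEE1.

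Since 9 members were lower together, the 250 bases upstream of their annotated starts (RefSeq, GRCh38.p14) were searched on both strands for the letters CCAAT, bound by NF-Y, for TTTGAA, the usual letters of the CHR, for TTCGAA, a variant of the CHR that reads alike on both strands, and for the E2F-like letters TTTCGCGC and also TTTGGCGC. No matches of different motifs overlapped in the members' windows. A match is a description of sequence, not a bound site. Promoters were found for 8 genes with 15 annotated starts. PKMYT1 and WEE1 were not among them. CCAAT stood before at least 1 start of all 8 genes, in 11 of 15 windows, against 32.0% of all 35116 windows of that length. TTTGAA stood in 6 of 15 windows, of 5 genes, against 13.3% of all windows, and each of those 6 also held CCAAT, as 4.69% of all windows did. Several windows of 1 gene overlap, so they are not independent. The shares are of windows, so the counts of genes have no share beside them. Genes with several starts also had more chances of a match. The 140 bases before the start are printed for the 5 genes with both motifs in 1 window, and for CCNB1. CCNB1, the cyclin gene with the lowest ratio, held the NF-Y letters but neither TTTGAA nor TTCGAA. Other spellings of the CHR were not searched, so the search does not show that CCNB1, CCNA2 or any other gene without a match lacks one. For CDC25C the only start with both motifs is shown, and for CDK1 the one of 2 whose matches lie nearest to it. In both, part or all of the bases printed lie downstream of another annotated start of the same gene. Capitals mark both motifs, on either strand, where the other strand shows as ATTGG for NF-Y and as the CHR letters in reverse complement.
CCNB2, chr15:59105006-59105145, plus strand: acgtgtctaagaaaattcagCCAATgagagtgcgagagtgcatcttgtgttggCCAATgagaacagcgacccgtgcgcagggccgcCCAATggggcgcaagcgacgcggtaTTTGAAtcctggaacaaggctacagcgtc
CKS1B, chr1:154974541-154974680, plus strand: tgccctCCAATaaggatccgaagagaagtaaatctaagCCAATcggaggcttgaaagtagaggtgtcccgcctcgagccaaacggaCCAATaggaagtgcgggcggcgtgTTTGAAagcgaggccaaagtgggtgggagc
CKS2, chr9:89311055-89311194, plus strand: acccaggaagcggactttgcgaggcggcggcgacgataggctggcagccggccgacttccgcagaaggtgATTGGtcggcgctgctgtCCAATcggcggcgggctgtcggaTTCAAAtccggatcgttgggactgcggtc
CDC25C start 1, chr5:138331805-138331944, minus strand: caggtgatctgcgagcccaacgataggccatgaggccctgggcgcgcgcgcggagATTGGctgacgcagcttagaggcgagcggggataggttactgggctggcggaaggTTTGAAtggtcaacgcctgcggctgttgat
CDK1 start 2, chr10:60778338-60778477, plus strand: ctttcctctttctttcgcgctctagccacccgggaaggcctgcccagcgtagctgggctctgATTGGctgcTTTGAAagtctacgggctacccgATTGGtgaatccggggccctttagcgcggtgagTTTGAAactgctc
CCNB1, chr5:69167010-69167149, plus strand: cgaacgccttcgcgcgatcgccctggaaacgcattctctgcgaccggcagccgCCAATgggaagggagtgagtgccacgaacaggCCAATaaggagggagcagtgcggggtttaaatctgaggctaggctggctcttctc

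In 4 of these sequences the CHR letters began 29 or 30 bases before the start. In CCNB2 they followed CCAAT letters that began 120, 87 and 54 bases upstream, and in CKS1B others that began 134, 102 and 54 bases upstream. CKS2 carried TTTGAA on the opposite strand at 29 bases, between CCAAT letters at 70 and 52 bases and the start. CDC25C start 1 had 1 CCAAT at 85 bases and TTTGAA at 30 bases. CDK1 start 2 had TTTGAA at 69 and 13 bases, CCAAT at 78 and 46 bases, and the E2F-like TTTCGCGC at 128 bases, a motif found in 0.439% of all windows. CCNB1 had CCAAT at 87 and 55 bases, and CCNA2 a single one, on the opposite strand, at 56 bases. CDC25B, the gene with the lowest ratio of all members, had no TTTGAA before any of its 4 starts, and its start 3 had CCAAT at 73 bases and TTCGAA, present in 1.19% of all windows, at 38 bases. TTTGGCGC was in none of the 15 windows.

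**Figure D3:**
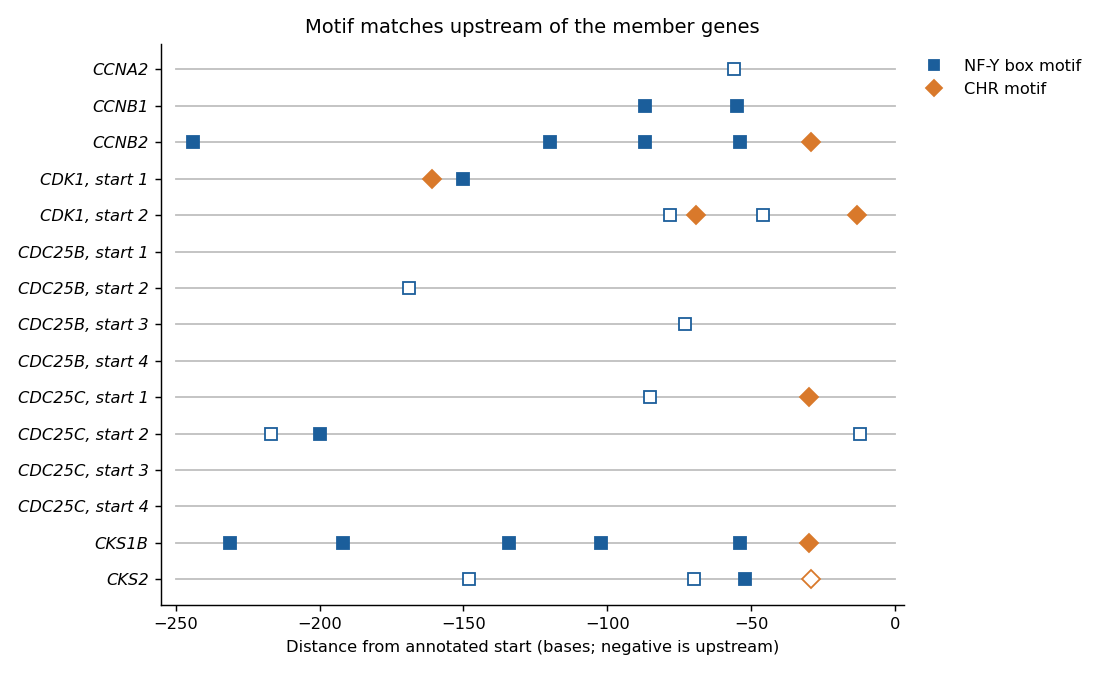
Positions of NF-Y box (squares, CCAAT) and CHR (diamonds, TTTGAA) motif matches in the 250 bases before each annotated start of 8 member genes. Filled symbols are on the strand of the gene and open symbols on the other. The TTCGAA match of CDC25B start 3 is not drawn. The x axis is the distance from the start in bases. In CCNB2, CKS1B, CKS2 and CDC25C start 1 the CHR match lies 29 or 30 bases upstream.

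The B-type cyclins and cyclin A2 give CDK1 its activity and its substrates. CCNB1, whose product drives entry into mitosis, went from 9961 with p53 off to 1880 with p53 on by probe set 214710_s_at, 5.30-fold lower. Its other probe set, 228729_at, read 1718 and 136.9 and was 12.6-fold lower, so both placed cyclin B1 far down but differed by 1.24 on the log2 scale in how far. The p53 on signal of the latter lay just above the floor. CCNA2, which encodes cyclin A2, was the member with the closest repeat. Its probe sets read 4097 and 1114 (213226_at, 3.68-fold lower) and 3829 and 808.2 (203418_at, 4.74-fold lower), with log2 ratios of -1.88 and -2.24.

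CCNB2, the gene of cyclin B2, was not read alike by its probe sets. By the brightest, 202705_at, the signal was 9115 with p53 off and 2704 with p53 on, 3.37-fold lower. The dim probe set 232768_at read 70.8 and 277.5 and was at least 2.47-fold higher. A further one, 232764_at, read 36.0 and 9.31, under the floor on both arrays. The 3.37-fold figure therefore rests on 1 probe set, and its direction depended on how the probe sets were combined. The mean log2 ratio over both measured probe sets was at least -0.22, since it holds a bound, and 0.11 from the signals without the floor, in place of -1.75.

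CDK1 itself differed least of all members by its brightest probe set. Probe set 203213_at went from 10459 with p53 off to 5521 with p53 on, 1.89-fold lower. The other 3 probe sets were all past 2-fold, with 8015 and 2838 for 210559_s_at (2.82-fold), 5483 and 1687 for 203214_x_at (3.25-fold) and 482.8 and 194.4 for 231534_at (2.48-fold). All 4 were thus lower, by 0.92 to 1.70 on the log2 scale, and the mean over them was -1.36. The CKS proteins bind CDK1 and help it to reach substrates that are already phosphorylated. CKS2 read 13897 and 5119 and was 2.71-fold lower, and CKS1B, which also serves the SCF ubiquitin ligase that degrades p27, read 13434 and 6936 and was 1.94-fold lower. Each had a single probe set, marked _s_at for sequence shared between transcripts. CKS1B passed 2-fold after quantile normalization (-1.05) and after loess (-1.03).

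The CDC25 phosphatases, which switch CDK1 on, had the lowest ratios by the brightest probe sets, though CDC25C lay only 0.096 below CCNB1 and the dimmer CCNB1 probe set was lower than either. CDC25B, which acts on cyclin-bound CDK1 at the centrosome in late G2, went from 2966 with p53 off to 440.4 with p53 on, 6.74-fold lower on its only probe set. CDC25C, the phosphatase that CDK1 and PLK1 activate as mitosis starts, read 1063 and 187.7 by 205167_s_at, 5.66-fold lower. By 217010_s_at it read 254.2 and 30.2 and was at least 2.26-fold lower. A dimmer probe set, 216914_at, read 68.3 and 31.7 and was not measured. CDC25A, the remaining phosphatase of the family and no member, read 1751 and 539.9 on its brightest probe set and was 3.24-fold lower. The highest of its 3 measured log2 ratios was -0.64.

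The inhibitory kinases parted. PKMYT1, the membrane-bound kinase, went from 1446 with p53 off to 430.1 with p53 on and was 3.36-fold lower on its only probe set, 204267_x_at, whose suffix marks probes that may match other genes. WEE1, the nuclear kinase, read 4888 and 16084 by 212533_at and was 3.29-fold higher. Its second probe set, 215711_s_at, read 1242 and 2191, 1.76-fold higher. Both WEE1 probe sets were thus above their p53 off signal while the brightest probe set of every other member was below it. Of the measured genes, 6.66% had a higher ratio than WEE1. Under scaling to the spike-ins instead, the median of all genes moved to -0.78 and WEE1 to 0.80, still above 0 but within 2-fold, and the median of the members moved to -2.67.

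**Figure D4:**
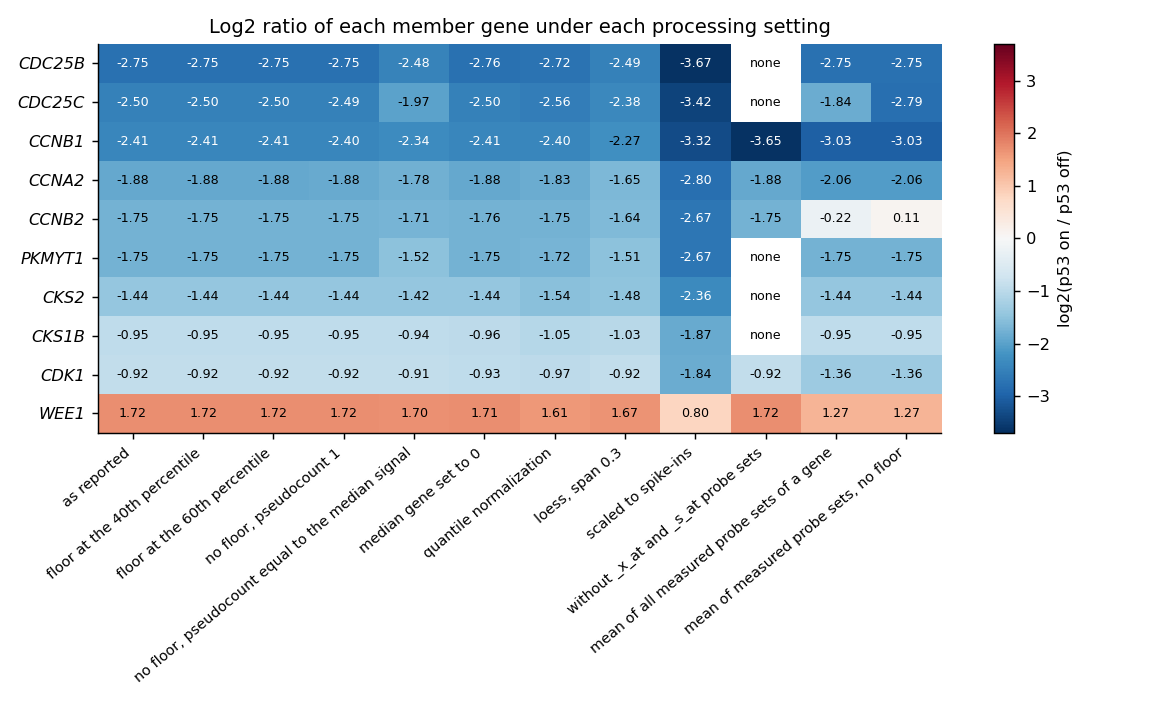
Log2 ratio of each member gene (rows, ordered by the reported value) under the reported processing and 11 alternatives (columns); the color scale runs from lower with p53 on (blue) to higher (red), and "none" marks genes left without a measured probe set. WEE1 is positive in all columns and the other members are negative wherever measured, except CCNB2 when its probe sets are averaged, at a lower limit of -0.22 with the floor and at 0.11 without it.

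Genes that act on or with CDK1 were read from lists by role. Of 12 other genes listed for CDK1 activation and mitotic entry, 8 were at least 2-fold lower and none was higher by that size. Of all measured genes, 13.5% were lower and 15.3% higher by that size. The median log2 ratio of the list was -1.57. PLK1, the polo-like kinase that activates CDC25C and marks WEE1 for destruction, went from 5062 with p53 off to 284.2 with p53 on, 17.8-fold lower on its only probe set. AURKA, which activates PLK1, was 9.08-fold lower by its brightest probe set, though the highest of its 3 measured ratios was -0.33. BORA, the cofactor of that step, was 4.54-fold lower at 1835 and 404.2. Cyclin F, encoded by CCNF and named here after its values were seen, was an exception among cyclins of G2, with log2 ratios of 0.036 and 0.29.

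Inhibitors of CDK1 and genes of the G2 checkpoint divided by kind. Of 10, 5 were at least 2-fold higher, and these were the inhibitors that p53 is known to induce and their relatives. CDKN1A, the gene of the CDK inhibitor p21, read 2723 and 23349, 8.58-fold higher. GADD45G was 4.61-fold higher, GADD45B 4.01-fold and GADD45A 2.75-fold, members of a family that can block the cyclin B1 and CDK1 pair. SFN, whose 14-3-3 sigma protein keeps cyclin B1 and CDK1 in the cytoplasm, read 20267 and 72704, 3.59-fold higher. The checkpoint kinase genes were not among them, and ATM, named after its value was seen, was 2.21-fold lower by its brightest probe set, with its other ratios reaching 0.50. The list median was 0.93, and it was chosen with p53 targets in mind.

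**Figure D5:**
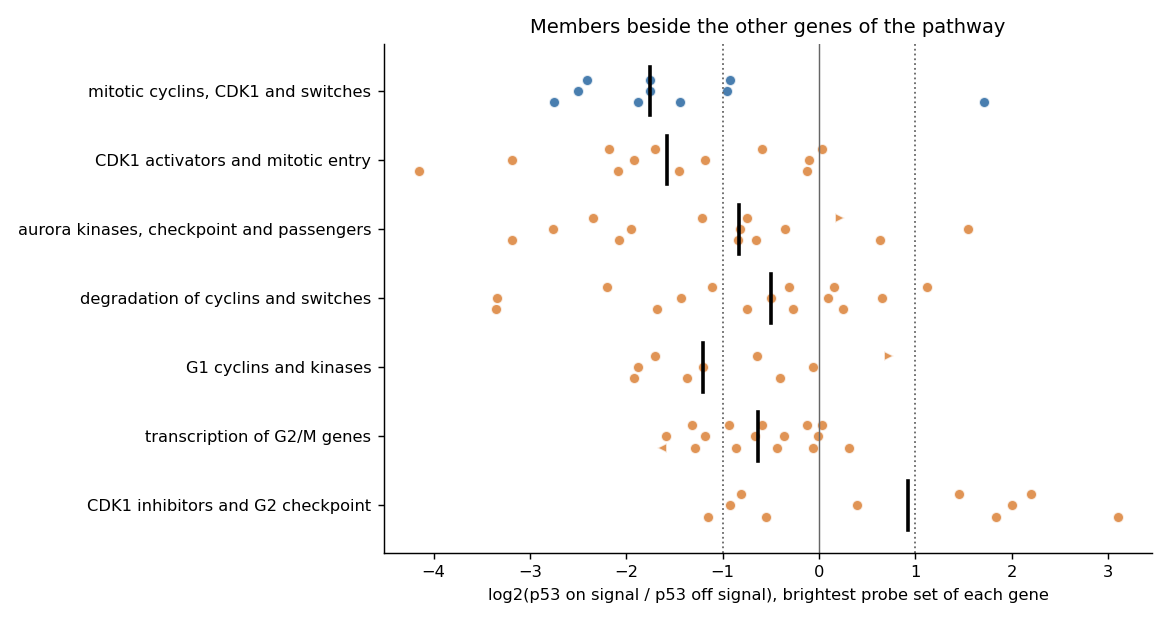
Log2 ratios (p53 on over p53 off, brightest probe set of each measured gene) of the members (blue) and of 6 lists by role (orange); triangles are bounds, black bars medians and dotted lines 2-fold. The member median is -1.75 and that of the inhibitor and checkpoint list 0.93. Some genes stand in more than 1 list.

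Of 16 transcription factor genes that serve G2 and mitosis promoters, 5 were at least 2-fold lower, none was higher by that size and 11 lay between. Of all measured genes, 13.5% were lower and 15.3% higher by that size. The list median was -0.63. RBL1, the pocket protein p107, read 346.3 and 93.4 by its brightest probe set and was at least 3.08-fold lower. The highest of its 3 measured log2 ratios was -0.13. E2F5 had a log2 ratio of -1.58 and NFYC, a subunit of NF-Y, one of -1.32 by its brightest probe set. FOXM1 and MYBL2, activators of late cell cycle genes that were named after their values were seen, were 2.45-fold and 1.59-fold lower. The DREAM core genes, named for their role and outside the rule for named genes, were within 2-fold by their brightest probe sets, with LIN9, LIN37, LIN52 and LIN54 between -0.43 and 0.32 and RBBP4 at -0.87. RBL2, the pocket protein p130 of DREAM, lay at -0.058.

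Of 15 measured genes that carry out or control the degradation of cyclins and the switch proteins, 6 were lower by at least 2-fold. By that size 1 was higher, and the list median was -0.50. Of all measured genes, 13.5% were lower and 15.3% higher by that size. UBE2C and UBE2S, the ubiquitin-conjugating enzymes that work with the anaphase-promoting complex, were each 10.2-fold lower. FBXO5, the inhibitor of that complex known as EMI1, is counted among the 6 lower genes and was 4.60-fold lower at 1317 and 286.5. The higher gene was SKP1, an SCF subunit named after its value was seen, at 24981 and 54275, 2.17-fold higher by its brightest probe set. Its 4 measured probe sets had log2 ratios from 0.33 to 1.12. A count of 1 in 15 does not exceed the share of all genes. BTRC and FBXW11, the F-box proteins that direct WEE1 to destruction and are named here for that role, had log2 ratios of -0.31 and 0.66 by their brightest probe sets, and each had measured probe sets of both signs.

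Beside the G1 cyclins and their kinases, the mitotic members were further down in the median, but this difference was not tested. Of 9 G1 genes, 5 were at least 2-fold lower and none was higher by that size, with a median of -1.20. Of all measured genes, 13.5% were lower and 15.3% higher by that size. By their brightest probe sets CDK2, the partner of cyclins E and A, was 3.78-fold lower, CCNE2 3.67-fold and CDC25A 3.24-fold. Among 14 genes of the aurora kinases, the spindle checkpoint and the chromosomal passengers, 6 were lower by at least 2-fold and 1 was higher by that size, and the median was -0.83. AURKA led these, with TPX2, its activator on the spindle, 6.79-fold lower and the checkpoint kinase gene BUB1B 5.08-fold lower. The higher one was BUB3, named after its value was seen, at 2.93-fold by its brightest probe set. Its 6 measured probe sets had log2 ratios from 0.55 to 1.55. A count of 1 in 14 does not exceed the 15.3% of all genes. Signals past 2-fold lower with p53 on were thus found in all 3 sets of genes, as in 13.5% of all measured genes. No test set the 3 sets apart.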

How the data were processed

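The authors' deposited values were linear signal intensities, 1 per probe set and array, for which the submitters' processing notes name MAS5. Its version and detection calls are not given here. The mean after trimming 2% at each end was 500.1 on both arrays, so no further scaling was added. Names came from GEO's annotation of the platform, with symbols updated by Entrez identifier to RefSeq (GRCh38.p14), and all 10 members matched. Of 54613 probe sets that were not controls, 41091 had 1 symbol. The brightest probe set by mean signal stood for a gene. Log2 ratios are p53 on over p53 off after the floor at the 50th percentile. With 1 array per condition no test was run, and genes were called by size at 2-fold.

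Members and lists were chosen with earlier results of these data known. Named genes were all members, the 3 largest absolute ratios of each list, and CDKN1A, SFN and GADD45A. CCNF, ATM, FOXM1, MYBL2, SKP1, BUB3, the DREAM genes, BTRC and FBXW11 fall outside this rule and were named after their values were seen. Alternatives were other floors (40th and 60th percentile), pseudocounts, scalings and probe set choices. The ratio calculation was tested on simulated data. Python 3.11.15, numpy 2.4.6, pandas 2.3.3, statsmodels 0.14.6 and matplotlib 3.10.9 were used. The gene of p53 itself is not reported here.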

Additional observations from a re-analysis of the deposited data

Results flagged for a closer look

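Control probe sets, which enter no comparison between genes, read differently on the 2 arrays. The 3' over 5' signal ratio with p53 on was 7.29 for beta-actin and 1.77 for GAPDH, against 1.37 and 0.97 with p53 off. The 18 hybridization spike-in probe sets were brighter with p53 on by a median of 1.89 times, with a range of 1.47 to 2.59. Their part in the ratios of the members was not tested.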

How the results depend on the processing

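Under 11 alternatives, WEE1 kept a ratio above 0 and every other measured member one below 0, except CCNB2 with its probe sets averaged. That mean was at least -0.22 with the floor, as it holds a bound, and 0.11 without the floor, a setting added after the data were seen. Over these alternatives the median of the members ran from -2.67 (spike-in scaling) to -1.58 (loess). Without the probe sets marked _x_at and _s_at, 5 member genes with 8 measured probe sets were left. Of these, 3 genes and 5 probe sets were at least 2-fold lower, where 12.4% of all 11053 genes then measured were. CDC25B, CDC25C, PKMYT1, CKS1B and CKS2 then had no value. With the floor at the 60th percentile, 1 of 18 measured member probe sets and 1 of 10 member genes were at least 2-fold higher, where 15.0% of all genes were. Each share here is of genes, and shares of all probe sets are not given for the alternatives. Under spike-in scaling, 0 genes and 0 probe sets of the members were at least 2-fold higher, where 5.94% of all genes were. With the same scaling, 9 member genes were at least 2-fold lower, where 41.1% of all genes were. These are counts by size with no test. CDK1 was past 2-fold under that scaling (-1.84) and with its probe sets averaged (-1.36), and CKS1B under that scaling (-1.87), quantile normalization and loess. No paired analysis was possible because each condition has 1 array, and no array could be left out. Signals near the floor limit the dim probe sets of CCNB2 and CDC25C.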
